A study of Homo sapiens with 8 samples.

Results

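The 10 genes described here encode the main cytosolic chaperones of the heat shock response with 1 of their partners and the factor that switches them on: HSPA1A, HSPA1B, HSPH1, HSPA8, HSPA4, HSPB1, HSP90AA1, HSP90AB1, BAG3 and HSF1. They were picked out by gene name among the 62703 genes of the count matrix, and each name had 1 gene ID. Their level is given as CPM, the count of unique molecular identifiers (UMIs, one per captured RNA molecule) of a gene scaled to the same total, 1e+06 UMIs, in every culture.

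The heat shock response protects cells from misfolded protein. Unfolded protein draws chaperones away from the transcription factor HSF1, which then forms trimers, binds heat shock elements (repeats of the letters GAA in alternating directions) and raises chaperone transcription. HSPA1A and HSPA1B are the inducible HSP70 chaperones, HSPA8 is the HSP70 that cells make at rest, HSPH1 and HSPA4 are nucleotide exchange factors of HSP70, HSPB1 is a small chaperone that holds unfolded protein, HSP90AA1 and HSP90AB1 are the inducible and the constitutive cytosolic HSP90, and BAG3 links HSP70 to autophagy.

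The study exposed differentiated HepaRG cells, a human hepatic progenitor line that matures into hepatocyte-like and cholangiocyte-like cells, for 24 h to 7 stress chemicals, to the vehicle DMSO at 0.1% or to medium alone, and profiled single cells by split-pool barcoding. The chemicals were rotenone (an inhibitor of mitochondrial complex I) at 0.2 and 0.4 µM, cycloheximide (which blocks translation) at 0.2, 2 and 20 µM, tunicamycin (which blocks protein N-glycosylation) at 0.001, 0.01 and 0.1 µM, brefeldin A (which blocks export from the endoplasmic reticulum) at 0.001, 0.01 and 0.1 µM, etoposide (a topoisomerase II poison) at 0.25, 2.5 and 25 µM, tert-butylhydroquinone (tBHQ, an activator of NRF2) at 3, 30 and 300 µM and troglitazone (an agonist of PPARG) at 50 µM. The troglitazone dose is the one in the table of cells, and the sample labels list lower doses. All cultures shared the collagen-coated plates and the dissociation at 37 °C with inhibitors of transcription and translation present.

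A culture is 1 sample name of the cell table, and its first number, called the run here, tells apart the repeats of a treatment. Of 47 cultures, 38 held at least 30 cells after filtering, and they gave 8340 cells, 37 to 1434 per culture, with 1741603 to 97081214 UMIs summed. DMSO had 4 cultures (runs 3, 4, 5 and 6), 12 treatments had 2 to 4 cultures and 7 had 1. The study names 1 biological replicate per condition, so the cultures may be technical repeats, and p-values then cover only the spread between them. All 10 hepatocyte markers, ALB among them, were detected in every culture. Markers of other cell types were detected unevenly. Of the cholangiocyte markers KRT19 averaged 88.0 CPM in DMSO, while KRT7 and EPCAM stayed at or below 4.28 and 1.15 CPM in every culture. Of the stellate or fibroblast markers COL3A1 averaged 70.9 CPM and COL1A2 was at 0 in the 4 DMSO cultures. Of the endothelial markers KDR averaged 67.0 CPM, while VWF and CDH5 stayed at or below 1.16 and 0.377 CPM, and of the immune markers CD68 averaged 17.9 CPM, while PTPRC and CD3E stayed at or below 2.14 and 0.560 CPM. In the 8 sublibraries, aliquots of the pooled cells, no full cell barcode was shared, while 1735 combinations of barcode wells occurred in more than 1 sublibrary. A CPM is a share of the RNA of a culture, so a rise in these genes and a loss of other RNA cannot be told apart.

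HSPA1A (chromosome 6, 31815543 to 31817946 on the plus strand, GRCh38, GENCODE 44) and HSPA1B (31827738 to 31830254) each have a single exon, and their coding sequences are the same at 1922 of 1926 bases. After the stop codon the transcripts are the same at 187 of 252 aligned bases, so the authors' counting could split reads of the coding part between them, and the pair is also given as a sum. To show how far the motif of HSF1 is shared by genes that moved alike, the 250 bases before the start are given for 5 of the genes the results turn on, from RefSeq (GRCh38.p14), with the letters GAANNTTC or TTCNNGAA, a pair of GAA units facing each other or back to back, in capitals. Both words read the same on the other strand and may overlap. The regions are chr6:31815293-31815542 and chr6:31827488-31827737 on the plus strand for HSPA1A and HSPA1B, and chr13:31162389-31162638, chr11:123062137-123062386 and chr14:102087045-102087294 on the minus strand for HSPH1, HSPA8 and HSP90AA1 (the second of its 2 starts).
HSPA1A: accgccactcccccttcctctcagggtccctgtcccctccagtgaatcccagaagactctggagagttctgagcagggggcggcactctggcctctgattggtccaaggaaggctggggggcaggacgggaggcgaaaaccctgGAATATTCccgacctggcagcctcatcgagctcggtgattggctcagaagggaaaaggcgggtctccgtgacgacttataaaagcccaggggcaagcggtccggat
HSPA1B: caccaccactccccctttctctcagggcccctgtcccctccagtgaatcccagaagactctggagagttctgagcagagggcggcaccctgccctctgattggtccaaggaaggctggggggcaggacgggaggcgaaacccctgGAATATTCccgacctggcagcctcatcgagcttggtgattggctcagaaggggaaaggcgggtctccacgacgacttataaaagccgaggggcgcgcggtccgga
HSPH1: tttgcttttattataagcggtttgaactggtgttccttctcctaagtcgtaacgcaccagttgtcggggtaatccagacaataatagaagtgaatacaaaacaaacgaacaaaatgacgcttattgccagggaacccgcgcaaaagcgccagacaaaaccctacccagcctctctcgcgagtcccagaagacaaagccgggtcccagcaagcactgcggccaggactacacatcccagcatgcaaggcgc
HSPA8: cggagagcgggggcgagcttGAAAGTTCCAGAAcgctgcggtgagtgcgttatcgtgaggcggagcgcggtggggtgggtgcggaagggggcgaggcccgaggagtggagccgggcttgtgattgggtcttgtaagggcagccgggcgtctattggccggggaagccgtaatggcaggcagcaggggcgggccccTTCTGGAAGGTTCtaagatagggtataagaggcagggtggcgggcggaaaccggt
HSP90AA1: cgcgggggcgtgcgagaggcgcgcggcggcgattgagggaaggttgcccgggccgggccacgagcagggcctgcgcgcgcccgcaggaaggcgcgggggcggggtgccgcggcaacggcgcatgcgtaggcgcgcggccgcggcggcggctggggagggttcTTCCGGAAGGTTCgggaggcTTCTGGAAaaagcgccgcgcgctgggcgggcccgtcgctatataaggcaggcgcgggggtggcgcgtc

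The windows of HSPA1A and HSPA1B matched at 235 of 249 aligned bases, and each held 1 word, GAATATTC, that began 106 and 105 bases before the start. HSPA8 held 4 words, the nearest beginning 50 bases before the start, and the second start of HSP90AA1 held 3. HSPB1 held 1 word, 182 bases before its start, and 1 of the 3 starts of HSP90AB1 (chr6:44247693-44247942, plus strand) held 4. HSPH1, HSPA4 and BAG3 held none in this window, and HSF1 was not searched here. In all, 6 of 9 members had a word in at least 1 window. Of their 12 windows 6 held a word and 3 held 2 or more. Over all 35116 windows of RefSeq genes, 11.6% held a word and 1.32% held 2 or more, and the share per gene is not given here. A word is a description of letters and not a shown binding site.

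In DMSO the members differed in how far their levels spread between cultures. HSPA1A stood at 13.5, 15.5, 17.8 and 18.9 CPM in runs 3, 4, 5 and 6, HSPA1B at 10.9, 10.2, 13.1 and 9.13 CPM, and HSPH1 at 41.6, 43.6, 38.6 and 45.7 CPM. HSPA8 spread more widely, at 173, 161, 305 and 220 CPM, with run 5 the highest, and so did HSPB1, at 50.1, 39.8, 76.1 and 60.6 CPM. HSP90AA1 averaged 419 ± 79.8 CPM (SD, n = 4), HSF1 ran from 26.7 to 41.5 CPM and BAG3 from 32.6 to 49.9 CPM. Medium without DMSO gave the same picture, with means of 16.6 ± 3.45 CPM for HSPA1A and 43.8 ± 4.47 CPM for HSPH1 (SD, n = 3). None of the 10 members passed edgeR's quasi-likelihood test between medium and DMSO (lowest Benjamini-Hochberg adjusted p = 0.998), where 0% of the 20212 genes tested were called. At an unadjusted p under 0.05, 1 member passed, BAG3 at 50.9 against 38.3 CPM.

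**Figure D1:**
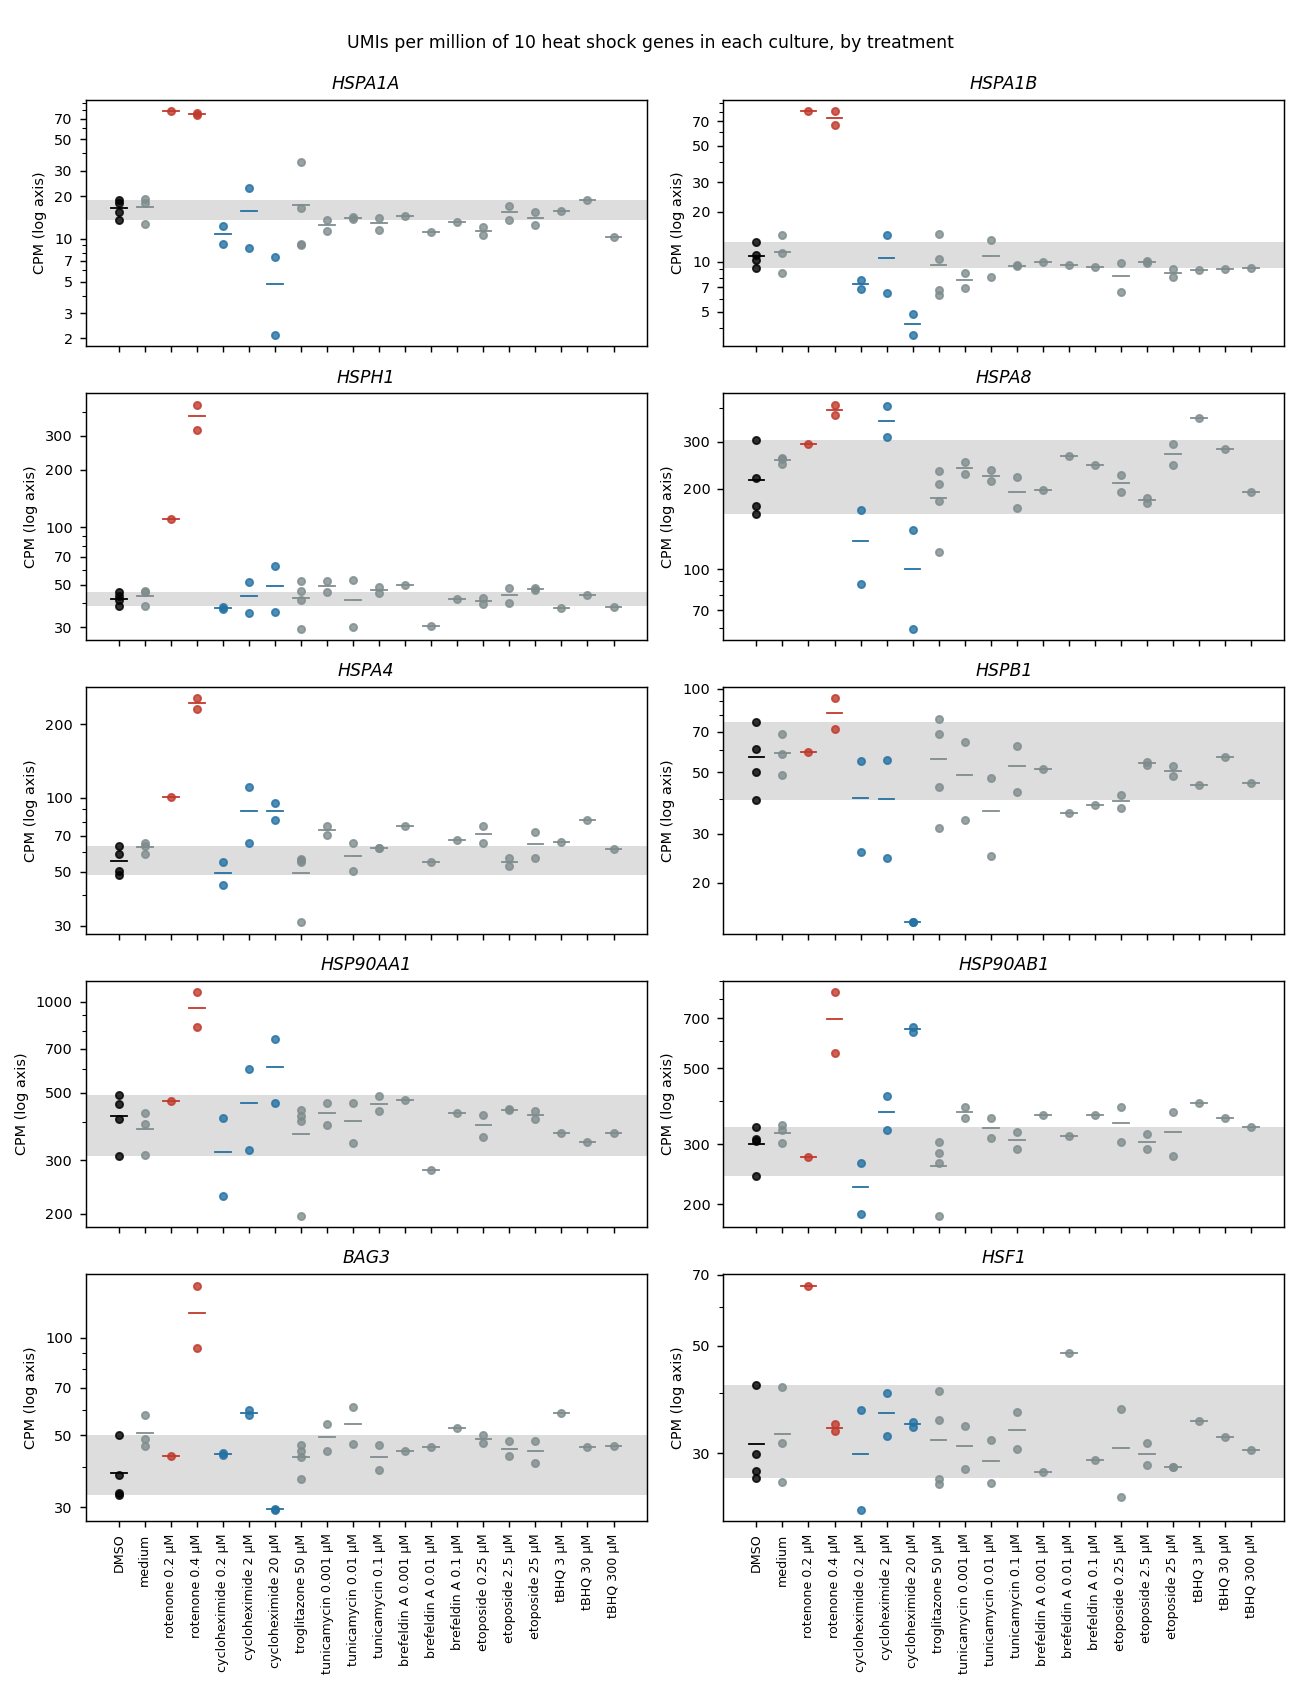
CPM of each of the 10 genes (log axis) in each of the 38 cultures, grouped by treatment, with a line at the mean and a grey band from the lowest to the highest DMSO culture. The red rotenone points stand above the band for HSPA1A, HSPA1B, HSPH1 and HSPA4 in all 3 cultures. The blue points of 20 µM cycloheximide stand below it for HSPA1A, HSPA1B, HSPA8, HSPB1 and BAG3, and above it for HSPA4 and HSP90AB1. The share of all genes outside such a band is not given here.

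Rotenone at 0.4 µM raised 8 of the 10 members, most of all HSPH1 and the inducible HSP70 genes. HSPH1, the HSP110 exchange factor, was at 42.4 ± 3.00 CPM (SD, n = 4) in the DMSO cultures and rose to 322 CPM in run 5 and 436 CPM in run 6. That is a log2 fold change of 3.16 ± 0.20 (SE, edgeR adjusted p = 6.84e-07). The lowest rotenone culture was thus far above the highest DMSO culture, at 45.7 CPM. The share of all genes placed in this way is not given here. Of all genes tested in this comparison, 19.1% were called higher and 42.2% lower.

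The inducible HSP70 genes rose together. HSPA1A reached 74.7 CPM in run 5 and 76.7 CPM in run 6 against 16.4 ± 2.39 CPM in DMSO, a log2 fold change of 2.20 ± 0.21 (edgeR adjusted p = 4.09e-06). HSPA1B reached 66.5 and 80.6 CPM against 10.8 ± 1.66 CPM, a log2 fold change of 2.74 ± 0.22 (edgeR adjusted p = 1.55e-06). Their groups did not overlap, and the share of all genes without overlap is not given here. Summed, the 2 genes rose by 2.45 ± 0.19 on the log2 scale (edgeR adjusted p = 1.34e-06, a fit added after the data were seen).

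HSPA4, the second exchange factor, rose from 55.2 ± 7.11 CPM to 255 and 231 CPM, a log2 fold change of 2.14 ± 0.19 (edgeR adjusted p = 2.93e-06). BAG3 reached 93.2 CPM in run 5 and 145 CPM in run 6 against 38.3 ± 8.08 CPM, a log2 fold change of 1.62 ± 0.24 (edgeR adjusted p = 0.000105). Both cultures were above every DMSO culture for either gene, a placing whose share over all genes is not given here. Within its own run, BAG3 rose by 0.90 in run 5 and by 2.16 in run 6 on the log2 scale, the widest gap between the runs among the called members.

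The HSP90 genes and HSPA8, which resting cells already make in quantity, rose less. HSP90AA1 went from 419 ± 79.8 CPM to 823 and 1076 CPM (log2 fold change 1.18 ± 0.24, edgeR adjusted p = 0.00101). HSP90AB1 went from 299 ± 40.3 CPM to 554 and 836 CPM (log2 fold change 1.21 ± 0.23, edgeR adjusted p = 0.000654). HSPA8 went from 215 ± 65.2 CPM to 379 and 413 CPM (log2 fold change 0.88 ± 0.26, edgeR adjusted p = 0.00988), and with the run as a block it was no longer called (log2 fold change 0.61, adjusted p = 0.136). HSP90AA1 lies over WDR20 on the opposite strand, which also stood higher, at 137 CPM in rotenone and 50.6 CPM in DMSO, and whether the counting used strand is not given in the sources used here.

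HSPB1 and HSF1 were not called. HSPB1 stood at 71.7 and 92.2 CPM against 56.6 ± 15.5 CPM (log2 fold change 0.52 ± 0.25, edgeR adjusted p = 0.0906), and its run 5 culture lay within the DMSO range. It was called under 6 alternatives, among them TMM factors (log2 fold change 0.97, adjusted p = 0.00783) and without the DMSO culture of run 5 (0.70, adjusted p = 0.0226). HSF1 itself, the switch of the response, stood at 34.4 and 33.3 CPM, inside the DMSO range of 26.7 to 41.5 CPM (log2 fold change 0.10 ± 0.24, edgeR adjusted p = 0.729), and was called under DESeq2 size factors alone (0.62, adjusted p = 0.0289).

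The median log2 fold change of the members was 1.42, that of all 19831 genes tested was -0.56 with total-count scaling and -0.10 with TMM factors. Over the 6091 genes with at least 50 CPM in some culture of this comparison the median was -0.02. Gene length moved with the fold change here. Genes under 10 kb had a median of 0.79 and a 90th percentile of 2.15, genes of 10 to 100 kb had 0.36 and 1.98, and genes over 100 kb had -0.82 and 1.39. Of the 5 members under 10 kb (HSPA1A, HSPA1B, HSPA8, HSPB1 and HSP90AB1), the inducible HSP70 pair stood above that 90th percentile, and of the 5 members of 10 to 100 kb HSPH1 and HSPA4 did. The part of length in these values was not tested. Cells of rotenone at 0.4 µM also held more UMIs in run 5, with a median of 184485 per cell against 79381 in DMSO of that run. Whether they were read more deeply or gave more RNA was not tested. With every cell thinned to 5000 UMIs 9 members were called higher.

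**Figure D2:**
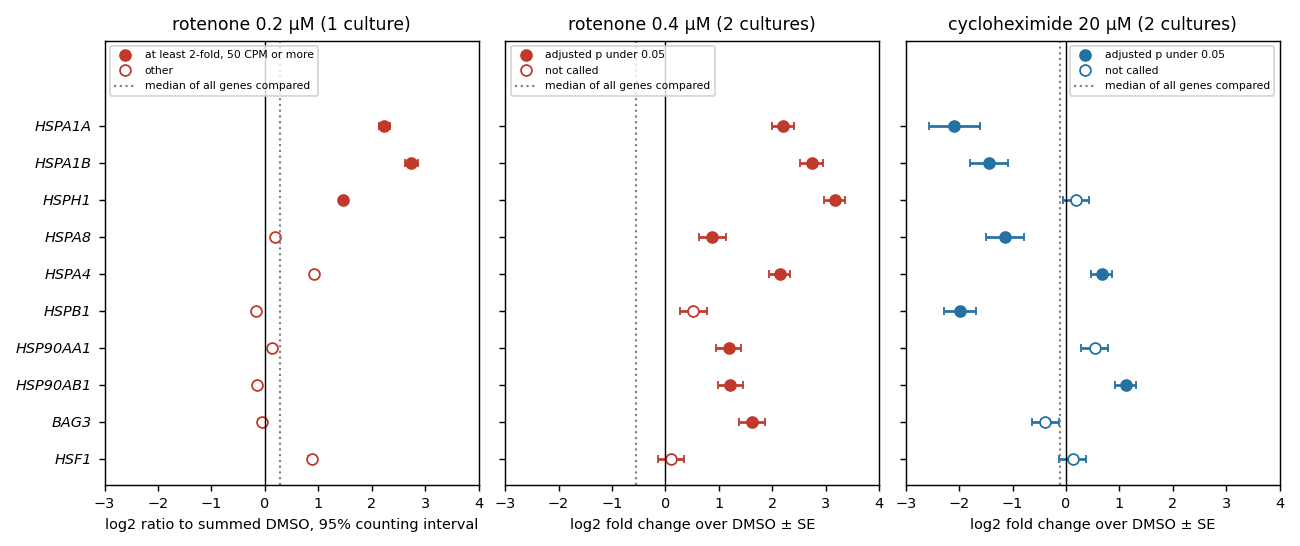
Log2 change of the 10 genes over DMSO for rotenone at 0.2 µM (ratio of 1 culture to the summed DMSO cultures, bars are 95% counting intervals), rotenone at 0.4 µM and cycloheximide at 20 µM (edgeR, bars are 1 SE). Filled points pass the threshold named in each panel and dotted lines mark the median of all genes compared, -0.56 at 0.4 µM rotenone.

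At 0.2 µM rotenone the inducible HSP70 genes stood as high in pooled CPM as at 0.4 µM. Of the members, 5 had log2 ratios to the summed DMSO cultures near 0. Rotenone at 0.2 µM had 1 culture (run 5), so no spread between cultures could be had and genes at least 2-fold apart with 50 CPM and 50 UMIs or more were counted. HSPA1A stood at 79.1 CPM, a log2 ratio to the summed DMSO cultures of 2.24 with a 95% exact binomial interval of 2.14 to 2.34, and HSPA1B at 80.6 CPM, a log2 ratio of 2.74 (2.63 to 2.86). HSPH1 stood at 111 CPM, a log2 ratio of 1.46 (1.40 to 1.53). These 3 were the members at least 2-fold higher, and none was 2-fold lower. Among all 5515 genes compared, 19.2% were at least 2-fold higher and 16.4% at least 2-fold lower. The intervals cover counting error only.

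HSPA4 came next at 101 CPM, a log2 ratio of 0.92 (0.86 to 0.98). HSF1 stood at 66.5 CPM, a log2 ratio of 0.88 (0.81 to 0.96), above every other of the 38 cultures. Against the DMSO culture of the same run, which held the highest HSF1 level in DMSO, that ratio was 0.68, and against the other 3 DMSO cultures it was 1.28. TMM factors put HSPA4 (1.19) and HSF1 (1.16) past 2-fold as well. HSP90AA1 (0.13), HSPA8 (0.19), BAG3 (-0.05), HSP90AB1 (-0.15) and HSPB1 (-0.16) had log2 ratios near 0, and the median over all genes compared was 0.29. The HSPA8 ratio depended on the DMSO cultures used. It ran from 0.06 to 0.70 with a DMSO culture left out and was -0.05 against DMSO of the same run. A single fit over all treatments, added after the data were seen and which assumes that the lone culture varies like the others, called 5 members higher by edgeR: HSPA1A (adjusted p = 0.000288), HSPA1B (4.7e-07), HSPH1 (0.000196), HSPA4 (0.0083) and HSF1 (0.00307).

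The step from 0.2 to 0.4 µM was compared within run 5, with 1 culture per dose. HSPH1 rose from 111 to 322 CPM (log2 ratio 1.54), HSPA4 from 101 to 255 CPM (1.34), BAG3 from 43.0 to 93.2 CPM (1.11), HSP90AB1 from 275 to 554 CPM (1.01) and HSP90AA1 from 469 to 823 CPM (0.81). HSPA1A plus HSPA1B went from 160 to 141 CPM (-0.18), and HSF1 from 66.5 to 34.4 CPM (-0.95). The median over all genes compared was -0.02. In the pooled UMIs of these 2 cultures, then, the exchange factors, BAG3 and the HSP90 genes were higher at the higher dose. The inducible HSP70 genes were not. Counting error is the only error known. Pooled UMIs give cells with more UMIs more weight, and the step with each cell counted alike is not given here.

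The level of the median cell, without thinning, also differed between the doses. The UMIs per cell differed too, with medians of 17080 to 79381 in DMSO, 184833 at 0.2 µM and 184485 and 45112.5 at 0.4 µM. The 2 rotenone cultures of run 5 were thus alike in this. In cells with few UMIs, medians and quartiles of a rare RNA take coarse values, so those of unlike cultures compare poorly. In DMSO the median cell had 0 to 28.1 CPM of HSPA1A plus HSPA1B, and the upper quartile of cells began at 36.6 to 44.5 CPM. In rotenone at 0.2 µM the median cell had 22.0 CPM, no more than in DMSO of run 5, while the upper quartile began at 122 CPM and the pooled culture stood at 160 CPM. In rotenone at 0.4 µM the median cell had 82.1 CPM in run 5 and 75.5 CPM in run 6, and the upper quartile began at 217 and 176 CPM. After thinning, the tenth of cells with the most UMIs of this pair held 75.6% of them at 0.2 µM and 65.0% and 59.3% at 0.4 µM. Sparse UMIs alone raise such a share, and no DMSO share is given beside it. It therefore does not show that the pair sat in fewer cells than in DMSO.

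Thinning every cell to 5000 UMIs removes the difference in UMIs per cell. The intervals in this paragraph cover the sampling of cells within 1 culture and not the spread between cultures. At least 3 UMIs of HSPA1A plus HSPA1B were then seen in 0.4%, 0%, 0% and 0% of DMSO cells (runs 3, 4, 5 and 6), in 12.5% of the 449 cells at 0.2 µM rotenone (95% exact binomial interval 9.56 to 15.9%) and in 14.3% (11.1 to 18.0%) and 9.09% (4.45 to 16.1%) of cells at 0.4 µM in runs 5 and 6. The variance of these UMIs over cells was 1.00 to 1.30 times the mean in DMSO, 7.74 times at 0.2 µM and 9.66 and 3.96 times at 0.4 µM, where a value of 1 is what random sampling from like cells gives. HSPH1 followed the dose: 3 or more UMIs were seen in 5.35% of cells at 0.2 µM (3.45 to 7.85%) and in 23.7% (19.7 to 28.1%) and 35.5% (26.6 to 45.1%) at 0.4 µM, against 0 to 0.4% in DMSO. BAG3 spread more evenly, with a variance of 1.22 and 1.46 times the mean at 0.4 µM. The weight of a cell matters for the pooled value, since the mean of HSPA1A plus HSPA1B at 0.4 µM went from 149 to 232 CPM when each cell counted alike.

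**Figure D3:**
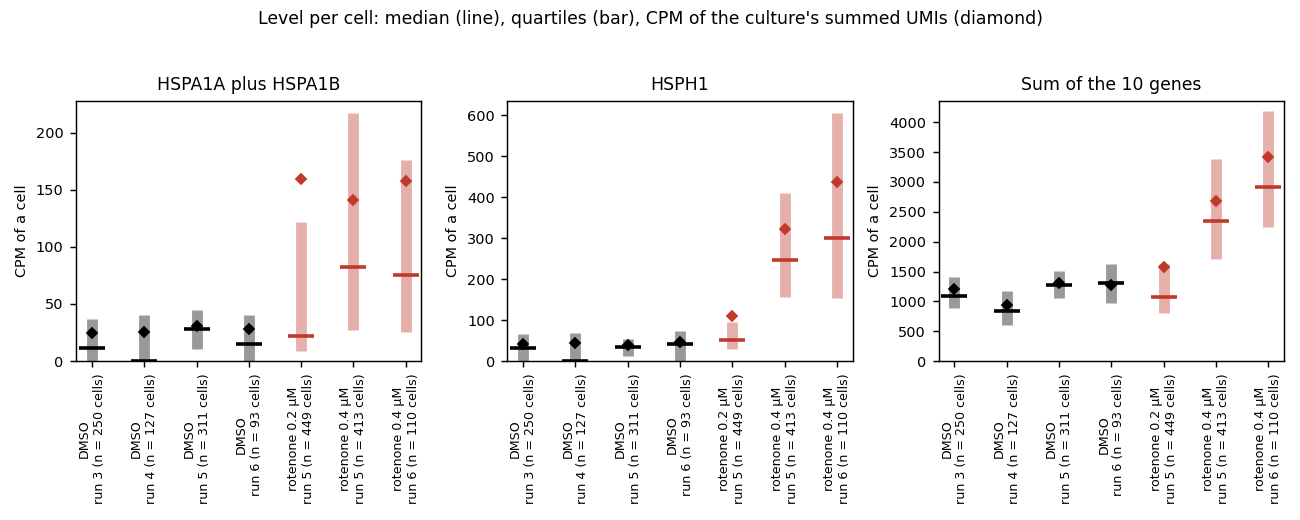
CPM per cell of HSPA1A plus HSPA1B, of HSPH1 and of the 10 genes summed in the 4 DMSO and 3 rotenone cultures, with the median cell (line), the quartiles (bar) and the pooled culture (diamond). Cells were not thinned, and UMIs per cell differed between cultures. At 0.2 µM rotenone the diamond for HSPA1A plus HSPA1B, at 160 CPM, lies above the upper quartile of 122 CPM, and at 0.4 µM whole bars shift up.

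Summed over the 10 members, the median DMSO cell held 6 UMIs of 5000. Cells with 12 or more made up 1.57 to 11.8% of the 4 DMSO cultures, 15.8% at 0.2 µM rotenone (12.6 to 19.5%) and 48.2% (43.3 to 53.1%) and 68.2% (58.6 to 76.7%) at 0.4 µM. Over the 35 cultures without rotenone the share ran from 0 to 25% with a median of 6%. The next highest were the run 4 cultures of cycloheximide at 2 µM with 25% and at 20 µM with 21.6%, whose run 3 partners had 3.74% and 8.89%. No cell type without these genes was in the pool, so the share that free RNA gives was not measured.

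**Figure D4:**
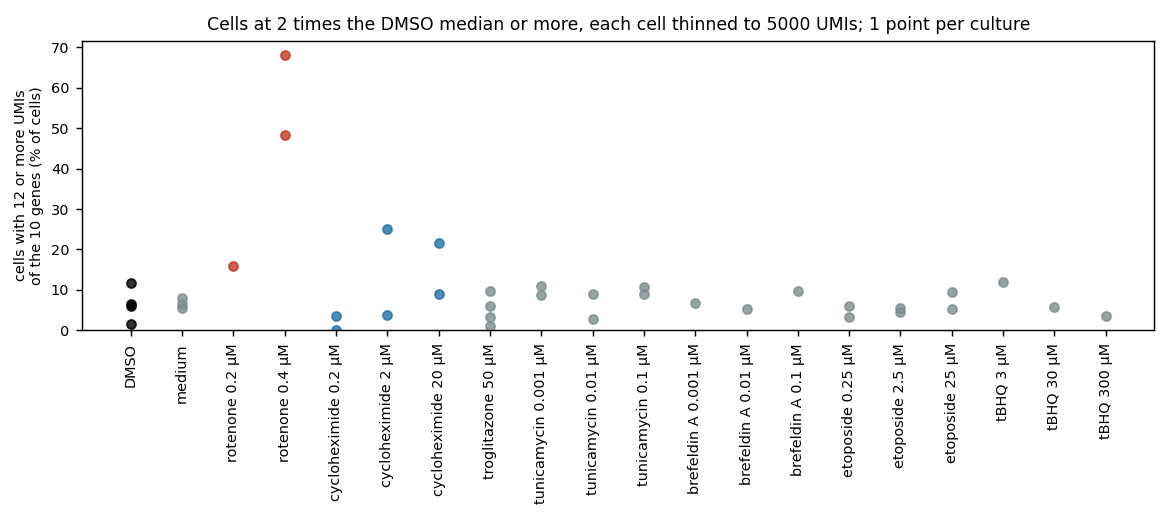
Share of cells with at least 12 UMIs of the 10 genes among 5000 UMIs per cell, 1 point per culture, by treatment. The 2 cultures of rotenone at 0.4 µM, at 48.2% and 68.2%, stand above all others, of which the highest was 25%.

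The members that rose also varied together from cell to cell, in part. These are rank correlations over the cells of 1 culture, each thinned to 5000 UMIs, and describe that culture. HSPA1A and HSPA1B had a Spearman's rho of 0.05 to 0.19 in the 4 DMSO cultures, 0.62 at 0.2 µM rotenone and 0.47 and 0.33 at 0.4 µM in runs 5 and 6. Their coding sequences are nearly the same, and the part of reads split between them in this rho was not tested. Their sum and HSP90AA1 had -0.03 to 0.12 in DMSO and 0.48, 0.50 and 0.42 in the rotenone cultures. Their sum and HSPH1 had -0.10 to 0.09 in DMSO and 0.34, 0.33 and 0.19 in rotenone. With the J-domain partner DNAJB1 the sum had -0.05 to 0.17 in DMSO and 0.41, 0.25 and 0.21 in rotenone.

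For pairs with BAG3 or HSPA4 the values were lower. The sum of HSPA1A and HSPA1B had a rho with BAG3 of -0.06 to 0.07 in DMSO and 0.09, 0.12 and 0.11 in rotenone. The rho of HSPH1 with BAG3 was 0.04 at 0.2 µM and 0.08 and -0.03 at 0.4 µM, and with HSPA4 it was 0.02, -0.08 and -0.13. The sum of HSPA1A and HSPA1B had a rho of -0.13 to 0.03 with ATF4, the factor of the integrated stress response, in the 3 rotenone cultures. Its rho with the depth of the cell before thinning was 0.05, -0.21 and 0.05, and with the mitochondrial share 0.03, 0.15 and 0.11. Sparse UMIs hold such values near 0, so low values say little.

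**Figure D5:**
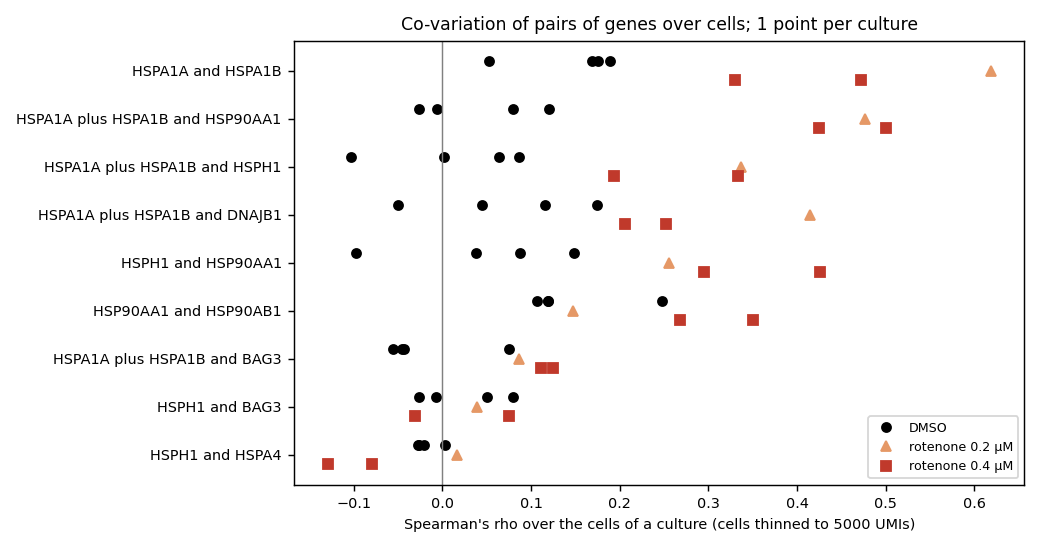
Spearman's rho of 9 pairs of genes over the cells of each DMSO (black circles), 0.2 µM rotenone (orange triangle) and 0.4 µM rotenone culture (red squares). The pairs made of HSPA1A, HSPA1B, HSPH1 and HSP90AA1 reach 0.19 to 0.62 in rotenone, and pairs with BAG3 or HSPA4 lie between -0.13 and 0.12. The value of 0.62 is that of HSPA1A with HSPA1B, between which reads of the coding part could be split.

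Cells dropped for a mitochondrial share above 20% held more of the inducible genes in all 3 rotenone cultures. In the 3 rotenone cultures the 304, 80 and 121 cells left out had 337, 276 and 279 CPM of HSPA1A plus HSPA1B against 160, 141 and 157 CPM in the cells kept, log2 ratios of 1.08, 0.97 and 0.83. In the other 22 cultures with at least 30 cells left out, this log2 ratio ran from -0.38 to 0.17. HSPH1 was higher by 0.39 to 0.64, HSP90AA1 by 0.48 to 0.65 and HSPA8 by 0.47 to 0.68 in the cells left out of the rotenone cultures, and HSPA4 was at -0.33 to 0.01. Whether rotenone differed from the others in this was not tested. A high mitochondrial share lowers the CPM of every other gene in the same cell.

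The rest of the chaperone network moved with the members at 0.4 µM rotenone. Of 32 other cytosolic chaperone and co-chaperone genes, 31 were tested, 20 rose and 2 fell, and their median log2 fold change was 1.09. The J-domain protein DNAJB6 rose from 55.1 to 427 CPM (log2 fold change 2.95). The HSP90 partners CACYBP (2.80), AHSA1 (2.46), which spurs the ATPase of HSP90, and CHORDC1 (2.27) followed. Of 12 regulators and targets of HSF1 that are no chaperones, 7 rose and 1 fell. HSF2, the second heat shock factor, rose from 9.91 to 154 CPM (log2 fold change 3.97), and the ubiquitin gene UBB (1.42) also rose. HSPA6, an HSP70 that resting cells hardly make, was picked out after its values were seen and stood at 2.31 CPM at 0.4 µM rotenone, 8.99 CPM at 0.2 µM and 0.107 CPM in DMSO. At 0.2 µM, 6 of the 32 genes were counted as at least 2-fold higher and 4 as lower. Among those counted, the widest log2 ratios were those of DNAJB4 (-1.74) and UNC45A (1.73). The shares of all genes compared, 19.2% higher and 16.4% lower, cover only genes past the minimum CPM and UMIs. The 32 include genes under that minimum, such as AHSA1 at 26.3 CPM. The counts therefore cannot be set against these shares, and the share among listed genes past the minimum is not given here.

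Other stress lists moved unequally in the same cultures. Of 10 genes of the integrated stress response 9 were tested and 7 rose at 0.4 µM rotenone, led by ASNS (log2 fold change 3.01), ATF4 (2.77), PSAT1 (2.67) and SESN2 (2.66), and 6 were at least 2-fold higher at 0.2 µM, led by TRIB3 (4.78). Of 12 chaperones of the endoplasmic reticulum 3 rose and 1 fell at 0.4 µM, and of 10 NRF2 targets 3 rose and 1 fell, beside 19.1% higher and 42.2% lower among all genes. Hepatocyte markers summed to 9595 and 18544 CPM at 0.4 µM and 10716 CPM at 0.2 µM, so that 2 of the 3 cultures lay under the DMSO range of 10925 to 26901 CPM, and proliferation markers to 517 and 820 CPM at 0.4 µM against 92.1 to 669 CPM. Stellate or fibroblast markers summed to 52.8 and 55.5 CPM at 0.4 µM, where 5 of 7 tested fell, and to 66.7 CPM at 0.2 µM, against 122 to 241 CPM in DMSO. Endothelial markers summed to 51.8 and 53.7 CPM at 0.4 µM and 21.1 CPM at 0.2 µM against 55.2 to 97.2 CPM. The part of such shifts in the members' values was not tested.

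Across the 20 treatments the genes with the pattern most like the inducible members were no chaperones. Likeness was Pearson's r of log2(CPM + 1) with the mean of HSPA1A plus HSPA1B, HSPH1 and BAG3, each centred, over 6567 other genes with at least 50 CPM in some treatment. The 5 highest were GLB1 (lysosomal beta-galactosidase, r = 0.980), RAB4A (a GTPase of early endosomes, 0.980), ITGA6 (an integrin alpha chain, 0.974), MARCHF8 (a membrane ubiquitin ligase, 0.970) and PRRC1 (0.970). GLB1 went from 50.9 CPM in DMSO to 115 and 150 CPM at 0.2 and 0.4 µM rotenone, and its highest level elsewhere was 52.2 CPM. Such an r rests on the 2 rotenone points.

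Cycloheximide at 20 µM split the members. HSPB1, the small chaperone, fell from 56.6 ± 15.5 CPM in DMSO to 14.4 CPM in run 3 and 14.5 CPM in run 4, a log2 fold change of -1.98 ± 0.30 (edgeR adjusted p = 0.00094). HSP90AB1 rose from 299 ± 40.3 CPM to 661 and 639 CPM, a log2 fold change of 1.12 ± 0.20 (edgeR adjusted p = 0.00229). For either gene both cycloheximide cultures lay close together and outside the DMSO range, and the share of all genes outside it is not given here. Among all genes tested, 6.52% were called higher and 13.2% lower, and 2 members were higher and 4 lower.

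HSPA1A was at 2.10 CPM in run 3 and 7.49 CPM in run 4 against 16.4 ± 2.39 CPM, a log2 fold change of -2.09 ± 0.48 (edgeR adjusted p = 0.00988). HSPA1B was at 3.61 and 4.82 CPM against 10.8 ± 1.66 CPM, a log2 fold change of -1.44 ± 0.36 (edgeR adjusted p = 0.016). Summed they fell by 1.75 on the log2 scale (edgeR adjusted p = 0.00419). HSPA8 was at 59.7 and 140 CPM against 215 ± 65.2 CPM, a log2 fold change of -1.14 ± 0.35 (edgeR adjusted p = 0.04). The run 3 culture was the lower one for all 3. In all, these cultures held 9.98e+06 UMIs in run 3 and 1.87e+06 in run 4, so their HSPA1A and HSPA1B levels rest on few UMIs.

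HSPA4 rose from 55.2 ± 7.11 to 80.9 and 95.3 CPM (log2 fold change 0.67 ± 0.20, edgeR adjusted p = 0.0369), a call lost without any 1 of the 6 cultures. HSP90AA1 stood at 464 and 754 CPM (log2 fold change 0.54, edgeR adjusted p = 0.155), HSPH1 at 36.0 and 62.6 CPM (0.19, 0.639), BAG3 at 29.7 and 29.4 CPM (-0.38, 0.307) and HSF1 at 34.1 and 34.8 CPM (0.12, 0.774). The run 4 culture had 37 cells. With the run as a block HSPA1A (adjusted p = 0.0433), HSPB1 (0.0122) and HSP90AB1 (0.0305) were still called, and HSPA1B (0.101), HSPA8 (0.137) and HSPA4 (0.16) were not. Without the run 3 culture 1 member was called lower and 1 higher, and with thinned cells HSPA1A (adjusted p = 0.055) and HSPA1B (0.383) were not called. Hepatocyte markers summed to 3135 and 7187 CPM in these cultures, below the DMSO range. Cholangiocyte markers (25.4 and 53.5 CPM against 105 to 168 CPM), endothelial markers (27.7 and 36.9 CPM against 55.2 to 97.2 CPM) and stellate or fibroblast markers (107 and 119 CPM against 122 to 241 CPM) lay below it too. Their part in the members' values was not tested.

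Of the 30 other chaperone genes tested at this dose, 3 fell and the rest were not called by edgeR, near the 13.2% of all genes called lower. DNAJB1, the main J-domain partner of HSPA1A, fell from 57.1 to 19.8 CPM (log2 fold change -1.64), FKBP5 from 1726 to 835 CPM (-1.05), and DNAJA1 from 121 to 66.8 CPM (-0.87), the last named after its values were seen. Of 12 chaperones of the endoplasmic reticulum 10 fell, with a median log2 fold change of -1.12, led by PDIA4 (-1.93) and HERPUD1 (-1.40).

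At the lower doses of cycloheximide no member was called. At 2 µM, where 0.00502% of the genes were called, HSPA8 stood at 312 and 407 CPM (log2 fold change 0.74, edgeR adjusted p = 0.523), HSPA4 at 65.3 and 111 CPM (0.67, 0.523) and BAG3 at 57.7 and 59.6 CPM (0.60, 0.533). These 3 had an unadjusted p under 0.05. HSPA8 was thus above every DMSO culture at 2 µM and below every one at 20 µM. At 2 µM its lower culture, at 312 CPM, stood close to the highest DMSO culture, at 305 CPM. The share of all genes placed in this way is not given here, and the difference between the doses was not tested. At 0.2 µM, where 0% of the genes were called, HSPA8 stood at 167 and 87.9 CPM (-0.74, 0.999), and it alone passed an unadjusted p of 0.05.

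The remaining chemicals gave no call in any member by edgeR without the run as a block. With the block, HSPA8 was called at 0.001 µM tunicamycin (log2 fold change 0.52, edgeR adjusted p = 0.0386). The share of genes called was 0.078% for troglitazone, 0%, 0% and 0.00538% for tunicamycin at 0.001, 0.01 and 0.1 µM and 0%, 0% and 0% for etoposide at 0.25, 2.5 and 25 µM, so the 0 members called stand beside a background near 0. Unadjusted, 1 member passed 0.05 at 0.001 and at 0.01 µM tunicamycin, 2 at 0.25 µM etoposide and none at the other doses or with troglitazone, and DESeq2 called none of the members in these comparisons. The fold changes of the members ran from -0.64 to 0.48 over the tunicamycin doses on the log2 scale, from -0.54 to 0.36 over the etoposide doses and from -0.22 to 0.15 for troglitazone.

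Brefeldin A and tBHQ had 1 culture per dose, all of run 4, and no member was 2-fold apart from DMSO. Of the genes compared, 1.58%, 0.889% and 0.272% were 2-fold apart at 0.001, 0.01 and 0.1 µM brefeldin A, and 0.583%, 0.67% and 0.86% at 3, 30 and 300 µM tBHQ. The widest log2 ratios were those of HSPB1 with brefeldin A. They were -0.89 at 0.01 µM (35.7 CPM, 95% counting interval -1.07 to -0.73) and -0.79 at 0.1 µM (38.3 CPM, -0.92 to -0.67). HSPA1A at 300 µM tBHQ followed at -0.70 (10.4 CPM, -1.23 to -0.20). HSPA8 at 3 µM tBHQ stood at 369 CPM (0.52, 0.46 to 0.57). Against the DMSO culture of run 4 alone HSPA8 was 2-fold higher there. HSF1 at 0.01 µM brefeldin A, at 48.2 CPM, was the only culture outside rotenone above the DMSO range for that gene.

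Over the 29 cultures other than DMSO, rotenone and 20 µM cycloheximide, HSPA1A plus HSPA1B ran from 15.0 to 49.3 CPM with a median of 22.1 CPM, and 19 of them lay below the lowest DMSO culture. The highest was the run 6 culture of troglitazone. HSPH1 ran from 29.5 to 53.0 CPM and HSPA4 from 31.0 to 111 CPM, so all 3 rotenone cultures but the 0.2 µM culture for HSPA4, at 101 CPM, stood above every one of them.

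Gene copies were counted beside several of the members. The share was highest for HSPA1A among the sets of copies without HSPA4L. Its 3 copies other than HSPA1B summed to 4.70% of its mean level in DMSO and 3.57% at 0.4 µM rotenone. The 17 pseudogenes named for HSPA8 summed to 0.55% of its mean level in DMSO, the 5 named for HSP90AA1 to 0.632% and the 5 named for HSP90AB1 to 1.31%. HSPA4L, a separate gene of the HSP110 family like HSPA4, stood at 96.8 CPM in DMSO, above HSPA4 itself, and rose to 214 CPM at 0.4 µM rotenone (log2 fold change 1.15, edgeR adjusted p = 0.00154). The 8 sublibraries of the 0.4 µM rotenone culture of run 5 gave 266 to 377 CPM of HSPH1 and 58.4 to 100 CPM of HSPA1A, each above the DMSO sublibraries of the same run, which reached 46.0 and 21.9 CPM. Sublibraries share the culture and are no replicates of it.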

How the data were processed

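The deposited matrix holds counts, UMIs per gene and cell, of 12976 cells and 62703 genes. The authors made it with the Parse Biosciences pipeline on GRCh38 and combined the 8 sublibraries (the GEO samples); the sources used here name neither its version nor the annotation. The median cell had 45221 UMIs. Following the filter of the study, a cell needed 500 genes or more and a mitochondrial share of no more than 20%, and UMIs were summed per culture. Cultures with under 30 such cells (9, with 124 cells) were left out. 1 repeated gene and cell pair was summed. No doublet caller was run.

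For treatments with 2 or more cultures, the comparison to DMSO used the quasi-likelihood test of edgeR (edgeR 4.0.16, R 4.3.3), with total-count scaling, filterByExpr and Benjamini-Hochberg adjustment over all genes tested (threshold 0.05). For 1 culture, log2 ratios have exact binomial intervals. Alternatives included TMM, DESeq2 (1.42.0), other cell filters, thinning to 5000 UMIs and the run as a block. Scripts were tested on simulated data. Members and lists were chosen with earlier results of these data known. Of each other list, the 4 genes with the largest called change and at least 50 CPM were named for 0.4 µM rotenone and 2 for other treatments; 1 such gene is not reported here.

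Whether a run was a batch is not stated. The deviations of same-run cultures correlated, over 4273 genes, by -0.18 to 0.50 for medium, 0.13 to 0.71 for troglitazone, 0.46 to 0.64 for tunicamycin, -0.08 to 0.39 for etoposide, -0.21 for 0.4 µM rotenone and 0.70, -0.33 and -0.14 for cycloheximide at 0.2, 2 and 20 µM.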

Additional observations from a re-analysis of the deposited data

Results flagged for a closer look

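In the 4 troglitazone cultures the run 4 culture stood apart for HSPA4, at 31.0 CPM where the nearest other culture had 54.9 CPM, and for HSP90AA1, at 196 CPM where the nearest had 404 CPM. Both were set off by their gap to the other cultures relative to the range of the group. This was looked for in 20 groups of 4 cultures, the 10 genes in DMSO and in troglitazone, and chance sets off about 1 in 20. The culture held 182 cells with a median mitochondrial share of 3.38%, against 9.53 to 25.7% in the other 3, and the part of this in the values was not tested.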

How the results depend on the processing

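Of the members' log2 values 15 changed sign under an alternative, and 0 of these were called. At 0.4 µM rotenone HSF1 (0.10) went to -0.11 with thinned cells and -0.0080 with the replicate block. At 20 µM cycloheximide HSPH1 (0.19) went to -0.32 with thinned cells and ran from -0.23 (without the treated culture of run 4) to 0.57 with a culture left out, and HSF1 (0.12) to -0.10 with thinned cells. The other 10 were at 0.2 µM rotenone, in HSPB1, BAG3, HSP90AB1 and HSPA8, the widest for HSPB1 from -0.16 to 0.22 without the DMSO culture of run 5. At 20 µM cycloheximide the count of members higher went from 2 to 1 with all cells, thinned cells or the run as a replicate block, and was 1 to 1 with a culture left out. The count lower went from 4 to 2 with thinned cells or the replicate block, and was 1 to 4 with a culture left out, 1 being without the treated culture of run 3. The replicate block also gave 1 member (HSPA8) at 0.001 µM tunicamycin in place of 0. At 0.2 µM rotenone the 3 members past 2-fold became 5 with TMM factors, and 5 in the single fit added after the data were seen, which also makes the sum over treatments with 1 culture 5 in either case. At 3 µM tBHQ 1 member passed against DMSO of the same run. With a DMSO culture left out that count ran from 0 to 1 and the sum from 3 to 5, both highest without run 5. The mean of HSPA1A plus HSPA1B at 0.4 µM rotenone, 149 CPM, was 183 CPM with all cells and 232 CPM with thinned cells, and the share of cells with a UMI of the pair at 0.2 µM rotenone, 28.3% thinned, was 84.9% at full depth; both alternatives were added after the data were seen. The block changed no other count of calls by over 1.5 times. Causes were not tested.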

Other observations

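HSPA1A in the troglitazone culture of run 6 stood at 34.8 CPM, the highest outside rotenone, while DMSO of that run had 18.9 CPM. HMOX1, the NRF2 target that degrades heme, stood at 96.5 CPM in 0.4 µM rotenone and at 6.93 CPM in DMSO (log2 fold change 3.78), and SLC7A11, the cystine transporter, at 547 and 62.2 CPM (3.13).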
